A study of Mus musculus with 10 samples.

Results

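Bile acids are made from cholesterol in the liver by a chain of 9 genes considered here: Cyp7a1, Cyp8b1, Cyp27a1, Cyp7b1, Hsd3b7, Akr1d1, Amacr, Slc27a5 and Baat. They were chosen by symbol, as the enzymes that hydroxylate and reduce the sterol ring, shorten its side chain and conjugate the product, and make up 9 of 23420 gene rows. All 9 passed the filter on low counts, which kept 12796 genes, with between 440 and 31614 reads per library. Gene expression was measured by RNA-seq of total RNA from liver, in a series that also concerns lysine β-hydroxybutyrylation of histones, a mark named for a ketone body of starvation. The starved group held 5 livers of male C57BL/6 mice aged 4 months that went without food for 48 hours with water at hand, and the fed group held 5 livers of male C57BL/6 mice of the same age kept on standard chow. The mice carried no named allele and received no drug. Libraries are called by the replicate number of their title, 1 to 5 in each group.

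Bile acid synthesis can start on either of a pair of routes. In the classical route the microsomal P450 Cyp7a1 hydroxylates cholesterol itself and sets the pace of synthesis, whereas in the alternative route the mitochondrial P450 Cyp27a1 first oxidises the side chain and Cyp7b1 then hydroxylates the ring. Further along, Cyp8b1 diverts intermediates toward cholic acid, and in mice the intermediates that escape it become chenodeoxycholic and muricholic acids. The products are activated with coenzyme A and joined, in mice mostly, to taurine before they are exported into bile.

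Starvation went with a rise of Cyp8b1, the enzyme of the cholic acid branch, to 5.50 times its fed level. Amacr, a racemase of side chain shortening, was lower. The other 7 genes, Cyp7a1 among them, were not called. Calls rest on edgeR's quasi-likelihood test with p adjusted over all tested genes and a threshold of 0.05. By it 1 of 9 rose, beside 18.6% of all tested genes, and 1 of 9 fell, beside 20.0%. Calls in either direction came to 2 of 9, beside 38.6% of all tested genes, and the starved and fed libraries did not overlap for 2 of 9, beside 29.9%. The median log2 fold change of the 9 genes was −0.094, and that of all tested genes was 0.0035. The sign of the median of the 9 was not stable, with 0.087 without starved library 4, 0.011 without fed library 4 and 0.013 without starved libraries 2 and 4, but −0.22 without fed library 3 and −0.27 with libraries scaled by their totals alone. The share of these genes that were called was therefore not above that of the whole table, and what stood out among them was the size of 1 change.

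The sequence before Cyp8b1 is shown because Cyp8b1 was the member with the large change. It is the RefSeq window from 250 bases before to 50 bases after the start site (chr9:121916256-121916555, minus strand, GRCm38.p6), printed in the direction of transcription. Capitals mark an HNF4A-type match and an NR5A2-type match, which overlap, and a TATA-type match further right:
Cyp8b1: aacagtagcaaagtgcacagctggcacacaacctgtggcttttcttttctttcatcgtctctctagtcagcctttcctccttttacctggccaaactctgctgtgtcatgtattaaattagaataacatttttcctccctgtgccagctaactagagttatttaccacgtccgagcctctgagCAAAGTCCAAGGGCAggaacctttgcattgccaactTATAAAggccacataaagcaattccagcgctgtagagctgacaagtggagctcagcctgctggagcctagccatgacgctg

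HNF4A and NR5A2 are nuclear receptors of hepatocytes, and their binding before the start of Cyp8b1 is known from work on the rat and human genes. The letters searched, on both strands and after the sequences could be seen, were CAAAGTCCA for HNF4A, CAAGGNCA for NR5A2 and TATAAA for the TATA box. The HNF4A-type match spans bases −67 to −59 from the start site and the NR5A2-type match spans −60 to −53, so they share 2 bases. Of 32851 windows of 300 bases in the RefSeq table, 0.475% held CAAAGTCCA, 6.71% held CAAGGNCA and 13.6% held TATAAA, each on either strand. Windows were matched for 4 of the 9 genes, and those of Cyp27a1, Hsd3b7 and Akr1d1 held none of these 3 motifs. AGGTCA, the half-site of many nuclear receptors, was found in that of Akr1d1 at −232 to −227 and −210 to −205, and in 16.3% of all windows. TGTTTAC, a FOX-type motif, and CACGTG, an E-box, were found in none of the 4 windows and in 3.65% and 7.15% of all windows. A match of letters describes the window and shows no binding.

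Before the values, a few facts of the libraries bear on all of them. Reads assigned to genes came to 18.2 to 28.1 M per starved library and 23.0 to 29.9 M per fed library, and levels below are TMM-scaled CPM, that is read counts relative to library size after a scaling of libraries to each other. Starved libraries were less alike than fed ones. The root mean square log2 difference of a library from the mean of the others in its group was 0.37 to 0.73 in starved livers, with starved library 2 highest, and 0.22 to 0.25 in fed livers. An earlier analysis of these data had set starved libraries 2 and 4 apart. By this measure library 4 (0.38) lay within the range of libraries 1, 3 and 5, and values without libraries 2 and 4 are given beside those of all libraries where they differ by over 1.5 times or change a call. Of 6 hepatocyte markers 1 rose and 2 fell, with a summed level of 126191 to 185918 CPM in starved and 114131 to 160120 CPM in fed liver. The hepatocyte gene Alb, which encodes albumin, stood at 94215 ± 20087 CPM in starved and 82740 ± 14124 CPM in fed liver (SD, n = 5 each). Of 7 Kupffer cell markers, 0 rose and 6 fell, with a summed level of 170 to 344 CPM in starved and 392 to 638 CPM in fed liver. Marco, the lowest of the 7, was not called (10.7 ± 5.52 CPM in starved and 18.5 ± 20.6 CPM in fed liver, adjusted p = 0.304, edgeR). Of 5 cholangiocyte markers, 0 rose and 1 fell (15.0 to 40.6 CPM in starved and 46.3 to 57.2 CPM in fed liver), and of 3 neutrophil markers tested 3 rose and 0 fell (2.72 to 22.2 CPM in starved and 1.72 to 3.65 CPM in fed liver). Of 6 endothelial markers 1 rose and 3 fell (174 to 228 CPM in starved and 209 to 247 CPM in fed liver), and of 5 stellate markers 1 rose and 0 fell (436 to 646 CPM in starved and 423 to 493 CPM in fed liver). Of 4 lymphocyte markers tested 0 rose and 1 fell (0.428 to 3.39 CPM in starved and 2.69 to 3.86 CPM in fed liver). Of 2 intestine markers tested 0 rose and 0 fell (108 to 268 CPM in starved and 89.5 to 156 CPM in fed liver). Pericentral hepatocyte markers, of which 1 of 8 rose and 1 fell, summed to 8305 to 10898 CPM in starved and 7241 to 9746 CPM in fed liver. Of 5 periportal markers tested, 3 rose (Sds, Hal and Pck1) and 1 fell (Cyp2f2). Their summed level was 5057 to 12349 CPM in starved and 2542 to 4732 CPM in fed liver. The most abundant of them, Pck1, averaged 5770 ± 2824 CPM in starved and 2282 ± 790 CPM in fed liver. Cyp2f2 averaged 362 ± 78.3 CPM in starved and 544 ± 122 CPM in fed liver. The sum thus mainly follows Pck1. The part of these cell types in the results below was not tested, and in bulk liver RNA a lower number of cells of a type and less RNA per cell cannot be told apart.

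**Figure D1:**
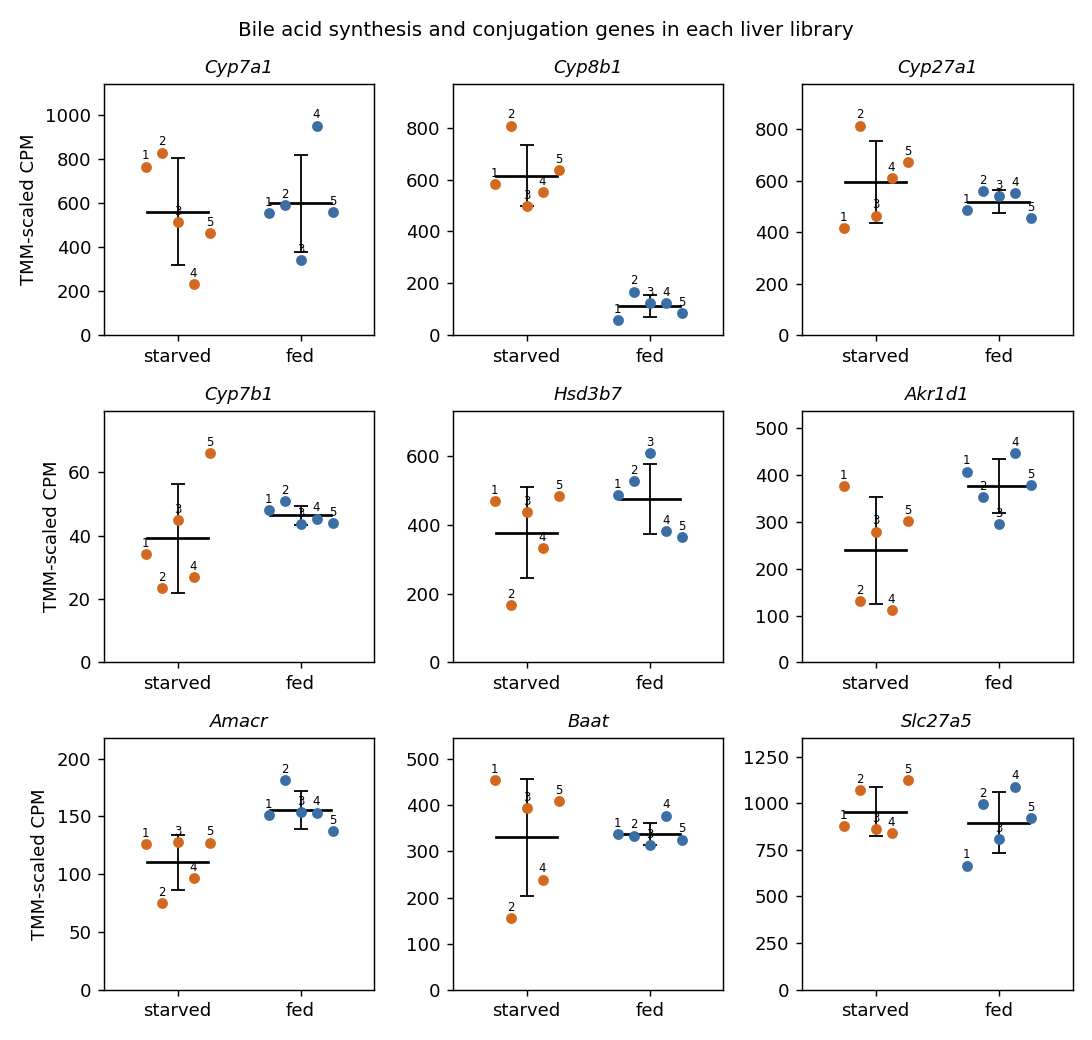
Level of each of the 9 genes, in TMM-scaled CPM from 0, in 5 starved and 5 fed livers. Each point is a library with its number, the line is the mean and the bar the SD. For Cyp8b1 all starved points, from 499 CPM, lie above all fed points, up to 168 CPM, and for Amacr all starved points lie below the fed ones, while the groups overlap for the other 7 genes.

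Cyp8b1 is the hydroxylase whose product leads to cholic acid, and it lies on chromosome 9 (121914356 to 121916305, minus strand, GENCODE on GRCm38, the build also called mm10) as a gene of 1 exon. It stood at 582, 808, 499, 552 and 637 CPM in starved libraries 1 to 5 and at 59.5, 168, 123, 125 and 84.7 CPM in fed libraries 1 to 5. Every starved library was above every fed one, with 499 CPM as the lowest starved and 168 CPM as the highest fed value. The means were 616 ± 119 CPM in starved and 112 ± 41.6 CPM in fed liver (SD, n = 5 each). The log2 fold change was 2.46 ± 0.26 (SE; 95% interval 1.90 to 3.02; adjusted p = 6.6e-05, edgeR's quasi-likelihood test), which placed Cyp8b1 at rank 86 of 12796 tested genes by fold. Without starved libraries 2 and 4 it was 2.37 (adjusted p = 2.3e-05, edgeR).

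Cyp7a1, the first and rate-limiting enzyme of the classical route, lies on chromosome 4 (6265612 to 6275633, minus strand). Its levels in starved libraries 1 to 5 were 768, 831, 515, 232 and 467 CPM, and in fed libraries 1 to 5 they were 555, 592, 342, 954 and 559 CPM. Both groups spread widely around like means, 562 ± 242 CPM in starved and 600.3 ± 221 CPM in fed liver, and the lowest of all 10 values was that of starved library 4 and the highest that of fed library 4. The log2 fold change was −0.094 ± 0.33 and was not called (adjusted p = 0.841, edgeR). Its 95% interval, −0.81 to 0.62, leaves room for a change of either sign, and the value was 0.13 without fed library 4, also 0.13 without starved library 4, and −0.020 without starved libraries 2 and 4.

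The alternative route runs through Cyp27a1 and Cyp7b1. Cyp27a1, the mitochondrial sterol hydroxylase that also opens side chain oxidation in the classical route, lies on chromosome 1 (74713574 to 74737892, plus strand). Its levels were 417, 815, 465, 609 and 672 CPM in starved libraries 1 to 5 and 486, 560.5, 540.4, 552 and 457 CPM in fed libraries 1 to 5. The fed values lay inside the range of the starved ones, and the log2 fold change of 0.20 ± 0.17 (95% interval −0.18 to 0.58) was not called (adjusted p = 0.383, edgeR). It was 0.31 without starved library 1, 0.069 without starved library 2 and 0.013 without starved libraries 2 and 4, and was called in none of these fits. Cyp7b1, the oxysterol hydroxylase of that route, lies on chromosome 3 (18071950 to 18243338, minus strand) with a small nuclear RNA gene, Gm23686, inside it. It stood at 34.3, 23.5, 44.9, 27.0 and 66.2 CPM in starved libraries 1 to 5 and at 48.2, 50.9, 43.7, 45.4 and 44.0 CPM in fed libraries 1 to 5. Starved libraries 1, 2 and 4 were below all fed libraries and starved library 5 above all of them. The log2 fold change was −0.25 ± 0.24 (95% interval −0.76 to 0.27; adjusted p = 0.429, edgeR). Without starved library 5 it was −0.52 and was called (adjusted p = 0.0362, edgeR), and without starved libraries 2 and 4 it was 0.074 and not called.

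Hsd3b7 and Akr1d1 act on the ring of both routes, Hsd3b7 as the dehydrogenase and isomerase that follows the first ring hydroxylation and Akr1d1 as the reductase of the ring's double bond. Hsd3b7 lies on chromosome 7 (127800604 to 127803802, plus strand), where the annotation has Gm49388 over it on the same strand and 9430064I24Rik on the other, so its count is uncertain to that extent. Its levels were 469, 166, 438, 333 and 485 CPM in starved libraries 1 to 5 and 487, 528, 610.4, 383 and 365 CPM in fed libraries 1 to 5. Starved library 2 was lowest of all 10, and the log2 fold change of −0.33 ± 0.26 (95% interval −0.89 to 0.24) was not called (adjusted p = 0.333, edgeR). It was −0.12 without starved library 2 and −0.014 without starved libraries 2 and 4. Akr1d1 lies on chromosome 6 (37530173 to 37568815, plus strand) with a processed pseudogene, Gm7463, inside it. It stood at 375, 131, 279, 111 and 301 CPM in starved libraries 1 to 5 and at 406, 351, 294, 446 and 377 CPM in fed libraries 1 to 5. Starved libraries 2, 3 and 4 were below all fed ones, while starved libraries 1 and 5 lay within their range. The log2 fold change was −0.65 ± 0.30 with a 95% interval from −1.30 to 0.0053, and was not called (adjusted p = 0.106, edgeR). It was −0.87 and called without starved library 1 (adjusted p = 0.0357, edgeR), and −0.22 without starved libraries 2 and 4 (adjusted p = 0.257, edgeR).

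**Figure D2:**
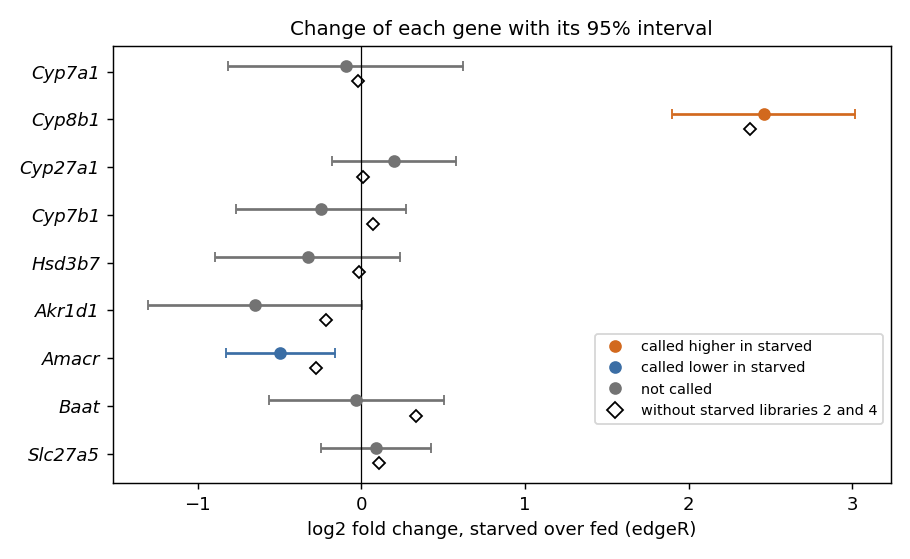
Log2 fold change of starved over fed liver for the 9 genes from edgeR's quasi-likelihood fit, with 95% intervals as bars, and the same value without starved libraries 2 and 4 as open diamonds. Cyp8b1 lies at 2.46 and Amacr at −0.49, the other intervals include 0, and the diamonds of Baat, at 0.33, and Cyp7b1, at 0.074, lie on the other side of 0 from their points.

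Amacr turns side chain intermediates into the form that peroxisomal oxidation accepts, and also serves branched fatty acids. It lies on chromosome 15 (10981756 to 10996626, plus strand). Its levels were 126, 75.0, 128, 96.2 and 127 CPM in starved libraries 1 to 5 and 151, 182, 154, 153 and 137 CPM in fed libraries 1 to 5. The groups did not overlap, though the highest starved value and the lowest fed value were close, at 128 and 137 CPM. The log2 fold change was −0.49 ± 0.15 (95% interval −0.83 to −0.16; adjusted p = 0.0244, edgeR). This call was lost without fed library 2 (−0.43, adjusted p = 0.0616, edgeR) and without starved library 4 (−0.43, adjusted p = 0.0654, edgeR), and without starved libraries 2 and 4 together the change was −0.27 and called (adjusted p = 0.0418, edgeR).

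Slc27a5 and Baat carry out activation and conjugation. Slc27a5, the bile acid coenzyme A ligase, which also acts on fatty acids, lies on chromosome 7 (12988346 to 12998192, minus strand). Its levels were 876, 1068, 861, 839 and 1125 CPM in starved libraries 1 to 5 and 665, 997, 807, 1088 and 921 CPM in fed libraries 1 to 5. The groups overlapped, and the log2 fold change of 0.091 ± 0.15 had a 95% interval from −0.24 to 0.42 (adjusted p = 0.662, edgeR). Its sign was not stable, with −0.070 when libraries were scaled by their totals alone, which put the median of all genes at −0.15, and −0.0018 without fed library 1. Baat, which joins the activated bile acid to taurine or glycine, lies on chromosome 4 (49489422 to 49506557, minus strand). It stood at 455, 155, 394, 239 and 409.5 CPM in starved libraries 1 to 5 and at 337, 334, 314, 378 and 326 CPM in fed libraries 1 to 5. Starved libraries 1, 3 and 5 lay above all fed libraries, and starved libraries 2 and 4 below all of them. The log2 fold change was −0.032 ± 0.25 (95% interval −0.57 to 0.50; adjusted p = 0.929, edgeR). Without starved libraries 2 and 4 it was 0.33 and called (adjusted p = 0.0194, edgeR). Those are the libraries in which Baat lay below all fed ones, so this call rests on which libraries were left out. In that fit 2 of 9 genes were higher, Cyp8b1 and Baat, and 1 of 9 was lower. Of all 13080 genes tested in it, 2647 were higher and 2705 lower.

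The extreme values of the 9 genes fell in different starved livers. Starved library 2 had the lowest starved value of 4 genes, Cyp7b1, Hsd3b7, Amacr and Baat, and the highest of 3, the P450 genes Cyp7a1, Cyp8b1 and Cyp27a1. Starved library 4 had the lowest value of 3 genes, Cyp7a1, Akr1d1 and Slc27a5, and the highest of 0. The spread relative to the mean was 38.6% in starved and 7.13% in fed liver for Baat, 43.9% in starved and 6.63% in fed liver for Cyp7b1, and 47.6% in starved and 15.3% in fed liver for Akr1d1. For Cyp8b1 it was the other way round, 19.3% in starved and 37.2% in fed liver. The same held, with a smaller gap, for Slc27a5, with 13.9% in starved and 18.5% in fed liver. Cyp7a1 varied in both groups, by 43.1% in starved and 36.9% in fed liver.

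Per kilobase of exon, which allows levels to be compared between genes, Cyp8b1 held the second place in starved liver and the eighth in fed liver. The starved order was Slc27a5 (391 CPM per kb), Cyp8b1 (316), Cyp27a1 (274), Baat (170.2), Hsd3b7 (137), Cyp7a1 (135), Akr1d1 (82.7), Amacr (42.3) and Cyp7b1 (18.1). Every pair of neighbours in this order overlapped in range between starved libraries. The fed order was Slc27a5 (367 CPM per kb), Cyp27a1 (239), Baat (174), Hsd3b7 (171), Cyp7a1 (144), Akr1d1 (129.6), Amacr (59.6), Cyp8b1 (57.4) and Cyp7b1 (21.4). There Slc27a5 stood clear of Cyp27a1, Cyp27a1 of Baat, Akr1d1 of Amacr and Cyp8b1 of Cyp7b1, while the other neighbours overlapped.

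A ratio of 2 genes within a library does not depend on the scaling between libraries, so the other hydroxylases were set against Cyp7a1. The ratio of Cyp8b1 to Cyp7a1, per exon length, was 1.62, 2.08, 2.07, 5.09 and 2.92 in starved libraries 1 to 5 and 0.230, 0.607, 0.771, 0.279 and 0.324 in fed libraries 1 to 5. Per exon length, Cyp8b1 was thus above Cyp7a1 in 5 of 5 starved livers and below it in 5 of 5 fed livers. The starved side depends on the exon lengths used, while the difference between groups does not. In CPM, without length, Cyp8b1 was below Cyp7a1 in starved libraries 1 (582 against 768), 2 (808 against 831) and 3 (499 against 515). It was above Cyp7a1 in starved libraries 4 (552 against 232) and 5 (637 against 467). The mean log2 ratio was 1.34 ± 0.64 in starved and −1.34 ± 0.75 in fed liver, a difference of 2.68 (exact two-sided permutation p = 0.00794, the smallest that 5 against 5 allows; adjusted p = 0.0238 over 3 ratios). Without starved libraries 2 and 4 it was 2.44, with the smallest p that 3 against 5 allows (exact permutation p = 0.0179, adjusted p = 0.0536). The ratio of Cyp7b1 to Cyp7a1 ran from 0.0546 to 0.273 in starved and from 0.0917 to 0.246 in fed liver (difference of mean log2 ratios −0.19, exact permutation p = 0.690, adjusted p = 0.690). That of Cyp27a1 to Cyp7a1 ran from 1.04 to 5.04 in starved and from 1.11 to 3.04 in fed liver (difference 0.31, exact permutation p = 0.5, adjusted p = 0.690). Neither of these differences was larger than the spread between libraries.

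**Figure D3:**
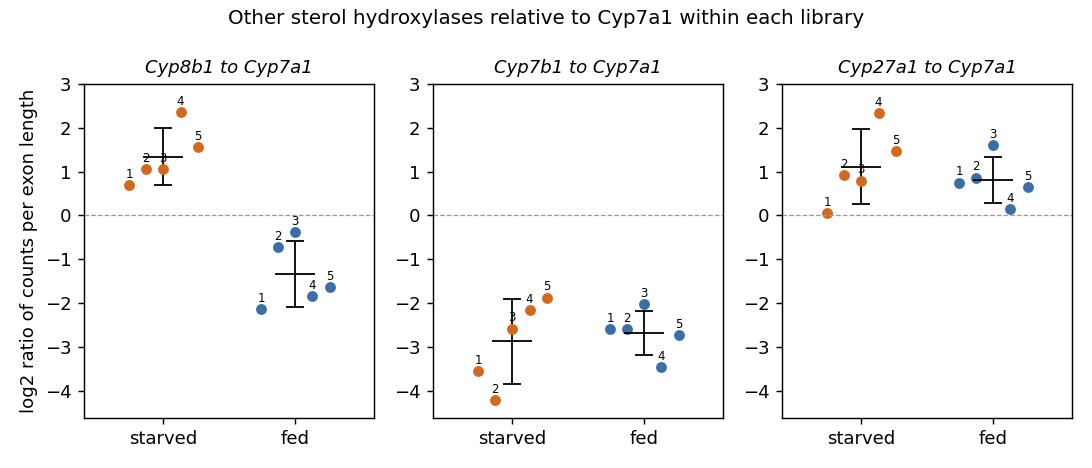
Log2 ratio of Cyp8b1, Cyp7b1 and Cyp27a1 to Cyp7a1, from counts per exon length, in 5 starved and 5 fed livers. Points are libraries with their numbers, the dash is the mean and the bar the SD. The starved points lie above 0 and the fed points below 0 for Cyp8b1, and the groups overlap for the other ratios.

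Genes outside the 9 whose levels ran most like a member over the 10 libraries were found by the root mean square difference of standardised log2 levels. For Cyp8b1 they were Dlst (difference 0.193), Cdip1 (0.204) and Blcap (0.212). Their log2 fold changes were 0.90, 1.20 and 1.01, each smaller than that of Cyp8b1, since standardising removes the size of a change. For Cyp7a1, whose variation lay within the groups, they were Hat1 (0.366), Gm19522 (0.411) and Ttc39c (0.467), and for Cyp7b1 Fam171a1 (0.286), G0s2 (0.308) and Ick (0.339).

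Other genes of the pathway were described by lists, by counts and medians without a test of a list. The counts of each list below stand beside 18.6% of all tested genes called higher and 20.0% called lower. Of 5 genes of peroxisomal side chain oxidation, 3 rose and 0 fell, with a median log2 fold change of 0.55, beside 0.0035 over all tested genes. Acox2, the oxidase that opens side chain shortening, stood at 243 ± 33.0 CPM in starved and 164 ± 30.4 CPM in fed liver (0.56 ± 0.15). Hsd17b4, the bifunctional enzyme of the next steps, stood at 449.6 ± 68.5 CPM in starved and 307 ± 31.1 CPM in fed liver (0.55 ± 0.13), and Acot8, a peroxisomal thioesterase, at 23.9 ± 6.43 CPM in starved and 15.6 ± 1.62 CPM in fed liver (0.61 ± 0.18). These genes also serve fatty acid oxidation. The call of Acot8 was lost with library totals alone (0.47) and without fed library 4 (0.58, adjusted p = 0.0516, edgeR). The groups overlapped for Acox2, Hsd17b4 and Acot8. Scp2, the most abundant gene of the list, was not called (1622 ± 496 CPM in starved and 2137 ± 164 CPM in fed liver, −0.40, adjusted p = 0.129, edgeR). Abcd3 was not called either (−0.068). The summed level of the list was 1744 to 3241 CPM in starved and 2762 to 3115 CPM in fed liver.

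Among 4 tested genes of other sterol and bile acid hydroxylation, 1 rose and 1 fell (median log2 fold change −0.13). Cyp39a1, an oxysterol hydroxylase, rose to 141 ± 51.1 CPM in starved against 27.2 ± 3.22 CPM in fed liver (log2 fold change 2.38 ± 0.23, adjusted p = 3.9e-05, edgeR), a change close in size to that of Cyp8b1. Cyp2c70, which makes muricholic acids in mice, fell to 399 ± 203 CPM in starved against 808 ± 90.1 CPM in fed liver (−1.02 ± 0.26, adjusted p = 0.00914, edgeR). RNA of the cholic acid enzyme was thus higher and that of the muricholic acid enzyme lower in starved liver. The groups overlapped for Cyp2c70 but not for Cyp8b1. Ch25h was below the filter.

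Of 6 electron donors and sterol carriers, 1 rose and 3 fell (median −0.30). Por, which passes electrons to microsomal P450s such as Cyp7a1 and Cyp8b1, stood at 841 ± 464 CPM in starved and 272 ± 56.8 CPM in fed liver (1.63 ± 0.34, and 0.999 without starved libraries 2 and 4). Fdx1 and Fdxr, which do so for mitochondrial P450s such as Cyp27a1, fell, the first to 60.8 ± 9.07 CPM in starved against 88.0 ± 6.66 CPM in fed liver (−0.53 ± 0.12), and Fdxr to 10.2 ± 2.94 CPM in starved against 15.7 ± 0.725 CPM in fed liver (−0.62 ± 0.18). Stard4, a cytosolic cholesterol carrier, fell by 2.60 ± 0.28 on the log2 scale. Of 4 genes of taurine supply, 1 rose and 2 fell (median −0.50). Cdo1, the cysteine dioxygenase that begins taurine synthesis, rose (0.64 ± 0.13), while Csad, the decarboxylase that follows it, fell to 90.5 ± 23.7 CPM in starved against 224 ± 78.4 CPM in fed liver (−1.30 ± 0.27). Slc6a6, the taurine transporter, fell as well (−0.45 ± 0.12), and Fmo1, which oxidises hypotaurine to taurine, was not called (−0.56, adjusted p = 0.133, edgeR), though it was without starved library 5 (−0.77).

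Of 18 regulators of the pathway, 2 rose and 4 fell, with a median log2 fold change of −0.015. The largest rise was that of Ppargc1a, a coactivator of fasting genes (2.18 ± 0.16). Hnf4a, the receptor named with the Cyp8b1 window above, stood at 896 ± 254 CPM in starved and 630.5 ± 52.8 CPM in fed liver (0.51 ± 0.18, adjusted p = 0.042, edgeR). Its call was lost with library totals alone (0.34), with limma-voom, without any single fed library (0.47 to 0.53), without starved library 2 (0.38) or 4 (0.44) and without both (0.20). Nr5a2, the other receptor named there, fell to 42.8 ± 10.2 CPM in starved against 65.1 ± 3.52 CPM in fed liver (−0.60 ± 0.15, adjusted p = 0.0075, edgeR). Ppara, the fatty acid receptor (−1.20 ± 0.21), and Dbp, a clock output factor that acts on Cyp7a1 (−3.20 ± 0.34), also fell. Prox1, a corepressor of nuclear receptors, fell (−0.52 ± 0.17), a call lost without fed library 2 (−0.43) or 4 (−0.52), without starved library 4 (also −0.43) and without starved libraries 2 and 4 (−0.28). Nr1i3, a xenobiotic receptor, was not called (0.31, adjusted p = 0.199, edgeR), but was called higher without starved library 2 (0.45) and without starved libraries 2 and 4 (0.59). Rxra (−0.15, adjusted p = 0.589), Foxo1 (0.58, adjusted p = 0.0987) and Gps2 (0.41, adjusted p = 0.0754) were not called by edgeR. Leaving out 1 library gave a call for Rxra (−0.38 without starved library 2), Foxo1 (0.73 without starved library 3) and Gps2 (0.50 without starved library 1). Gps2 was also called higher with the DESeq2 Wald test (0.44, adjusted p = 0.0492). The feedback of bile acids on synthesis runs through the receptor Nr1h4 and its target Nr0b2 in liver and through the gut hormone receptor Fgfr4 with Klb, named here after their values were seen. Nr1h4 stood at 139.5 ± 42.3 CPM in starved and 164 ± 18.6 CPM in fed liver, and Nr0b2 at 12.3 ± 7.89 CPM in starved and 16.8 ± 7.50 CPM in fed liver. Fgfr4 stood at 15.0 ± 3.25 CPM in starved and 15.2 ± 1.60 CPM in fed liver, and Klb at 65.3 ± 12.7 CPM in starved and 60.9 ± 9.76 CPM in fed liver. None of these 4 was called (adjusted p = 0.365, 0.445, 0.916 and 0.622, edgeR).

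Of 10 tested genes of bile acid transport, a list that also holds the lipid transporters Atp8b1 and Abcb4, 3 rose and 3 fell (median −0.13). The bile salt export pump Abcb11 (354 ± 121 CPM in starved and 734 ± 129 CPM in fed liver, −1.05 ± 0.23), the uptake carrier Slco1a1 (−4.05 ± 0.34) and the flippase Atp8b1 (−1.10 ± 0.28) fell, and the uptake carrier Slco1a4 (2.31 ± 0.26), the basolateral exporter Abcc3 (1.20 ± 0.19) and the phospholipid exporter Abcb4 (0.78 ± 0.15) rose. The uptake carrier Slco1b2 did not overlap between groups but was not called (1277 ± 374 CPM in starved and 1847 ± 138 CPM in fed liver, −0.53 ± 0.20, adjusted p = 0.0524, edgeR). Slco1b2 was called lower without starved library 2 (−0.37) or 5 (−0.65), with limma-voom (−0.59) and with the DESeq2 Wald test (−0.51). The edgeR likelihood ratio test (−0.53) and library totals alone (−0.67) also called it lower.

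**Figure D4:**
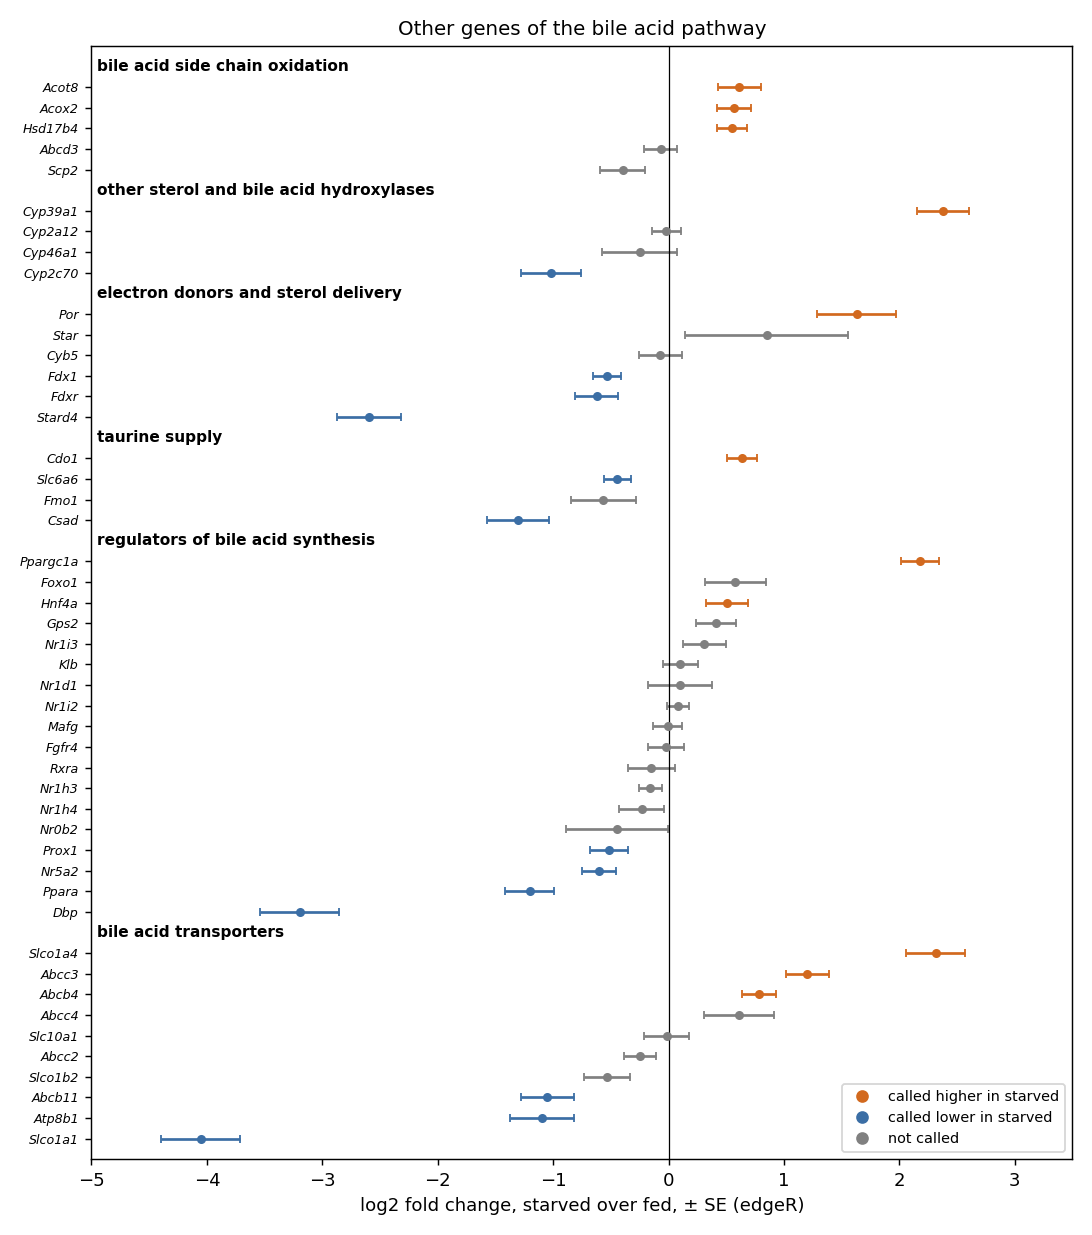
Log2 fold change of starved over fed liver, with its SE, for the tested genes of 6 lists around bile acid synthesis, coloured by call in edgeR's quasi-likelihood test. Each list but side chain oxidation holds genes called in both directions. Cyp39a1, Ppargc1a and Slco1a4 lie above 2, and Slco1a1, Dbp and Stard4 lie below −2.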

How the data were processed

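The labels' protocols name RNeasy extraction and a strand-marking TruSeq kit for total RNA. Tools listed in the submitters' processing notes are TopHat2 2.0.0 and Bowtie2 2.0.0, CASAVA 1.8.2, HTSeq and edgeR 3.6.4, and the build is mm10. The annotation and strand setting of the counts were not given in the sources used here, so genes that overlap others are uncertain. Levels per kilobase and ratios per exon length took exon lengths from GENCODE, which may differ from the annotation used for counting. The deposited files hold read counts per gene symbol, not normalised. Tallies of unassigned reads were left out of all fits. Of the total of each count file, 38.6% to 48.4% in starved and 46.4% to 48.1% in fed libraries was tallied as alignments that were not unique. These were not counted for genes, and the tally was not converted to a share of reads.

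In R 4.3.3, genes were kept with filterByExpr and scaled by TMM, and 5 starved were compared with 5 fed libraries by the quasi-likelihood test of edgeR 4.0.16 with Benjamini-Hochberg adjustment over 12796 genes, with no block. The 95% intervals are those of this fit. Alternatives included DESeq2 1.42.0 and limma-voom (limma 3.58.1). Promoter windows came from the RefSeq table and were searched for motifs picked with those windows in view. Ratios used counts plus 0.5 reads and exon lengths from GENCODE. Replicates of a group differed by more than sampling noise in all pairs (chi-square per degree of freedom from 11.2 up). The genes, lists, tests and alternatives were chosen with earlier results of these data known. Named were all 9 genes, every called gene of the 6 pathway lists, and the 3 genes most like Cyp7a1, Cyp8b1 and Cyp7b1. Marker lists were given as counts and sums. Alb, Marco and the periportal markers Sds, Hal, Pck1 and Cyp2f2 were named after their values were seen. So were genes of the pathway lists that were not called. Cyb5a, Tf and Adgre1 were read under the symbols Cyb5, Trf and Emr1, and Ly6g was not analysed here.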

Additional observations from a re-analysis of the deposited data

How the results depend on the processing

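Cyp8b1 was called higher in all 20 other fits, with a log2 fold change of 2.30 to 2.65 (adjusted p from 8.9e-20 to 0.00041 over edgeR, DESeq2 and limma-voom). Over all genes, 2379 were higher and 2555 lower in starved liver. At an adjusted p under 0.01 these were 1272 and 1526, with 0 of the 9 genes lower, and with library totals alone 1490 and 3490. Genes higher in starved liver made up 29.9% of calls under that scaling and 48.2% under TMM. Leaving out each library in turn gave 0 to 2 of the 9 genes lower. Amacr's call was also lost with a replicate block (−0.52, adjusted p = 0.0543, edgeR), which left 0 of the 9 genes lower and changed no other call among them, and the calls of Hnf4a and Prox1 were lost under it. The labels speak of pairs of mice without tying replicate numbers to them. Libraries of the same number were not all alike (correlation of deviations −0.057 to 0.23, and 2 of 5 starved libraries were most like the fed library of their number). Paired mice need not be alike by this measure, so whether the numbers mark pairs was not settled. An exact sign-flip test of the ratio of Cyp8b1 to Cyp7a1 over the paired numbers gave the same difference, 2.68, and an adjusted p of 0.1875, the smallest it allows. Without starved libraries 2 and 4, 2 of the 9 genes were higher, beside 2647 of 13080 tested genes. The 3 differences of ratios to Cyp7a1 were then 2.44 for Cyp8b1, 0.013 for Cyp7b1 and −0.029 for Cyp27a1. The log2 fold changes of Cyp7b1 and Baat changed sign to 0.074 and 0.33. Leaving out each library in turn gave −0.44 to 0.14 for the ratio of Cyp7b1 to Cyp7a1 and 0.0054 to 0.57 for that of Cyp27a1 to Cyp7a1. Such fits gave −0.26 to 0.13 for Cyp7a1, −0.17 to 0.16 for Baat, 0.069 to 0.31 for Cyp27a1 and −0.0018 to 0.17 for Slc27a5, none of them called, and Slc27a5 was −0.070 with library totals alone. The cause of these differences was not tested. Regulators numbered 2 higher and 3 lower without starved libraries 2 and 4, and transporters 4 higher and 3 lower, with Slc51b added. Starved library 5, with 18.2 M reads, was the shallowest, and all 9 genes had at least 440 reads in every library.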
